A study of Mus musculus with 18 samples.

Results

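Fatty acid oxidation and ketogenesis genes were followed through the livers of freely fed mice and of mice under 4 interventions. The set was a list of 33 symbols, taken by exact match from a table of 12019 genes, and all 33 were present. By the place of their product, 18 were grouped as mitochondrial, 9 as peroxisomal, 4 as regulators and genes linked to the nuclear receptor PPARα, 1 as a ketone body enzyme (Bdh1) and 1 as a fatty aldehyde enzyme (Aldh3a2). Each gene was given a single place. Crat and Eci2 were counted as mitochondrial, although their products work in peroxisomes too. The animals were C57BL/6J mice, treated for 8 weeks from 21 weeks of age, and whole livers were taken after perfusion. Of the labelled libraries, 6 are from freely fed (ad libitum) controls and 3 are from mice on 30% caloric restriction. Each compound group has 3 libraries, and the daily doses per kg of body weight, mixed into the chow, were 42 mg of rapamycin, 37.5 mg of metformin and 20 mg of TM5614. Beyond this, the labels name no transgene, sex or hour of collection. The design text speaks of 30 mice, whereas its groups and the labels both come to 18.

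In the liver, long-chain fatty acids enter mitochondria as carnitine esters through Cpt1a and Cpt2. Inside, acyl-CoA dehydrogenases, hydratases, hydroxyacyl-CoA dehydrogenases and thiolases shorten them in repeated cycles, and electron transfer flavoprotein carries electrons from the first step to the respiratory chain. Peroxisomes shorten very long and branched chains, and the acetyl-CoA made in mitochondria of a fasting liver is turned into ketone bodies. PPARα (Ppara) is the fatty acid sensor that raises many of these genes in fasting, and CREB3L3 (Creb3l3) works beside it. Rapamycin inhibits mTOR, a kinase known to restrain PPARα and ketogenesis, metformin is a glucose-lowering biguanide, and TM5614 is an inhibitor of the protease inhibitor PAI-1.

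Every level below is a group mean of counts divided by size factors ("normalized counts"), and every log2 fold change and adjusted p is that of the authors' deposited table, against the ad libitum control. A gene rose or fell where its adjusted p was under 0.05. That table gives no value per library, so no SD or standard error stands beside a mean, no overlap of groups can be given, and differences between interventions were not tested. All 4 comparisons share the control libraries. The smallest control means took 3 distinct values from 0.315 to 0.350, of the size that a single read gives in a mean over 3 libraries, although 6 control libraries are labelled. The hepatocyte markers were present in all groups, with albumin (Alb) at 606485 normalized counts in the control of the authors' deposited table. One control library stood apart. Of 7 pancreatic acinar markers in the table, 5 (Prss2, Amy2a5, Ctrb1, Cpa1 and Pnlip) were listed at 0 in all 4 treated groups. Their control means were whole multiples, from 72 to 581, of the same smallest control value, as reads of a single library would give. Results without that library could not be given, because only group means are in the table, and its part in the changes below was not tested.

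All 33 genes were well covered. Each had a mean above 50 normalized counts in all 5 groups, and 27 lay above the 90th percentile of level among all genes, the lowest being Abcd2 at the 68.1th percentile. All 33 have an adjusted p in all 4 comparisons. The highest mean of a gene was that of rapamycin for 17 genes and that of caloric restriction for 16, and never that of the control, TM5614 or metformin. The spread over the 5 group means ran from 1.11-fold for Acaa2, the mitochondrial thiolase, to 25.9-fold for Pdk4.

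**Figure D1:**
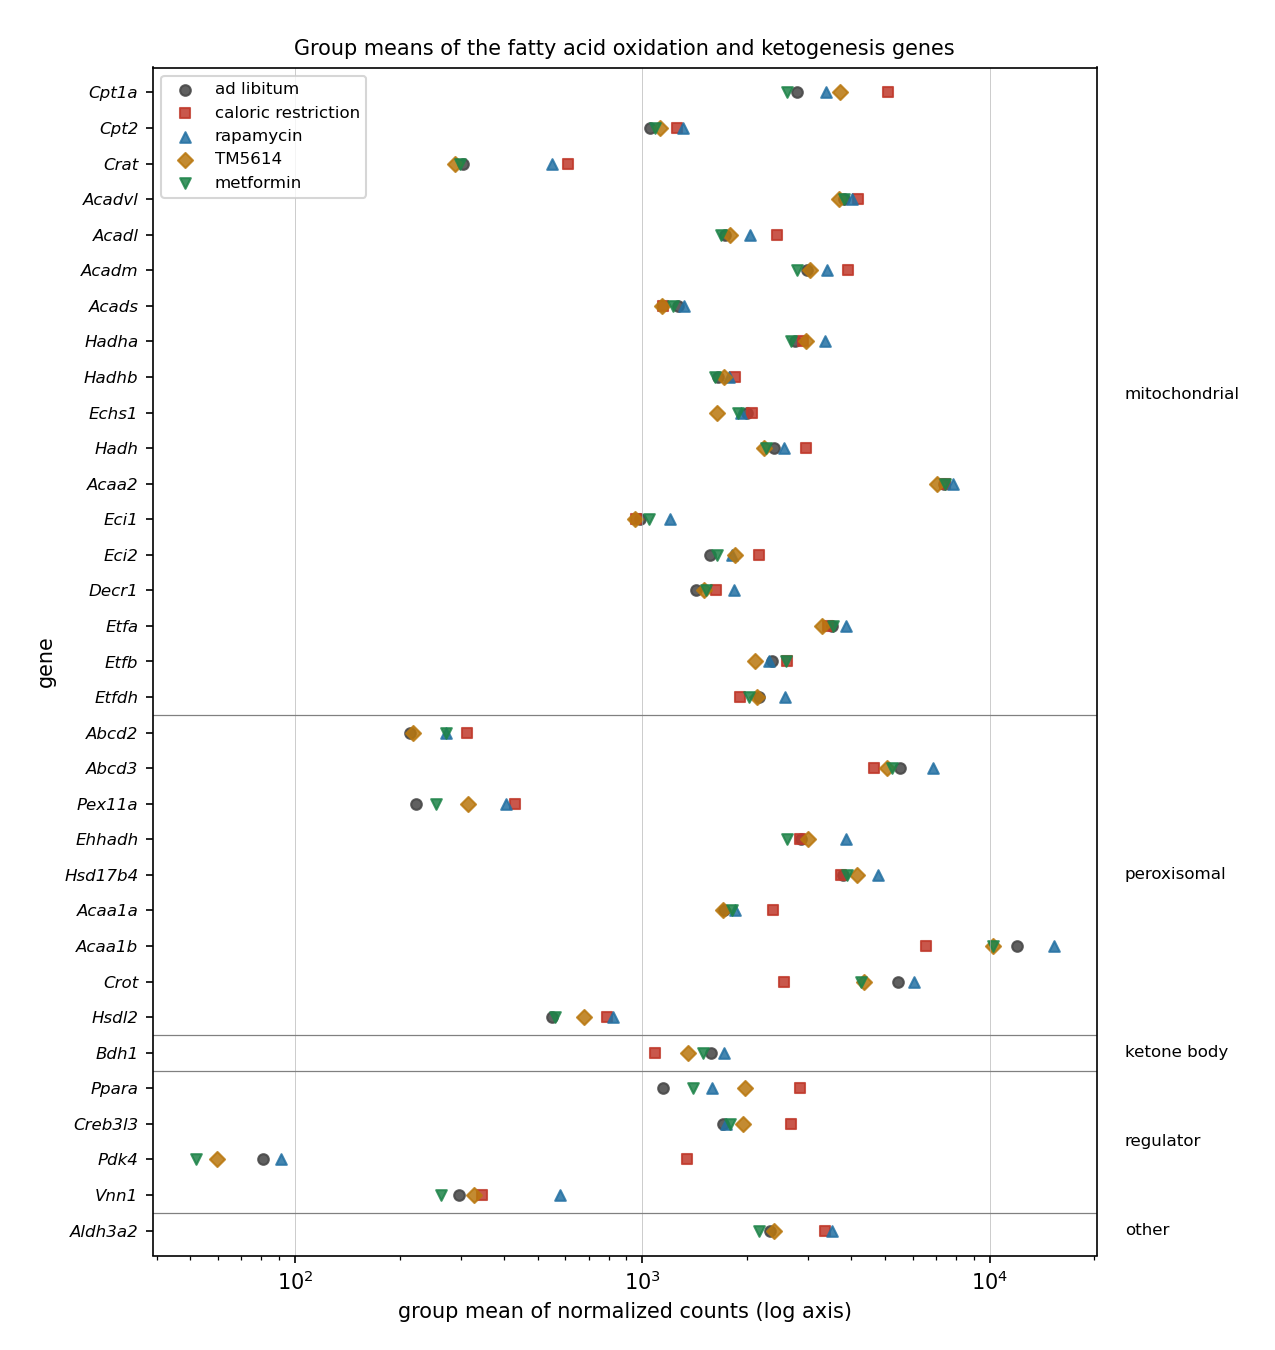
Group means of normalized counts (log axis) for the 33 genes, 1 row a gene, with 1 marker for each of the 5 groups and no error bars, since no value per library is in the table. Pdk4 stands alone at 1344 under caloric restriction against 51.8 to 91.1 elsewhere, whereas the 5 markers of Acaa2 lie between 7066 and 7839.

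Caloric restriction raised 12 of the 33 genes and lowered 3, and 18 did not pass. Among all 11760 genes with an adjusted p, 9.74% rose and 9.24% fell, so that 36.4% of the set rose against about 1 gene in 10 of the whole table. The whole table holds genes of every level, whereas 27 of the 33 lay above the 90th percentile. The part of level in these shares was not tested, here or for the compounds. The median log2 fold change of the set was 0.19, against 0.01 over all genes tested, and 23 of the 33 values were above 0. With the group means rescaled to the same total, the median of the set was 0.0911 and that of 11201 genes whose mean reached 10 was -0.09, and 3 of the 33 values, none of them called, changed sign. Of the 12 rises, 5 were of mitochondrial genes, 3 of peroxisomal genes and 3 of regulators, and the last was that of Aldh3a2. All 3 falls lay in the peroxisomal and ketone body genes.

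RefSeq gives, for GRCm38.p6, the bases before the start of 27 of the 33 genes, and those of 4 genes are printed 5′ to 3′ on the strand of the gene, with AGGTCA or its complement TGACCT, and CCAAT or its complement ATTGG, in capitals. Pdk4 is shown as the gene with the largest rise, Cpt1a and Acadm as genes that rose under caloric restriction and hold the hexamer, and Acaa1b as the gene with the highest control mean and one of the 3 that fell. The stretches are chr6:5496329-5496528 (minus strand, positions -250 to -51 from the start), chr19:3323051-3323300 (plus strand, -250 to -1), chr3:153944644-153944893 (minus strand, -250 to -1) and chr9:119157094-119157343 (minus strand, -250 to -1).
Pdk4: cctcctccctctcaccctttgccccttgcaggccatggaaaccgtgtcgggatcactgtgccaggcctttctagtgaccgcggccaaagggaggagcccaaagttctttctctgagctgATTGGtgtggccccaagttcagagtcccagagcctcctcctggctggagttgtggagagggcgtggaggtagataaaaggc
Cpt1a: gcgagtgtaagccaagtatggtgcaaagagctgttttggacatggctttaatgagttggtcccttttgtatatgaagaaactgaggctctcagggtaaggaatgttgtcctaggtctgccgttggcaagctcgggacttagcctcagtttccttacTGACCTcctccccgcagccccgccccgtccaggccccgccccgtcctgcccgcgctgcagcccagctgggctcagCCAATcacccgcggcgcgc
Acadm: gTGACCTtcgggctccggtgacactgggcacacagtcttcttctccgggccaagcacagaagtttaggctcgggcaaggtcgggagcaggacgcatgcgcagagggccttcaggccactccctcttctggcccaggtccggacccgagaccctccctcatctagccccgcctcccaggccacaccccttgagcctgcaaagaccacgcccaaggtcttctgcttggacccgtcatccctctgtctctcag
Acaa1b: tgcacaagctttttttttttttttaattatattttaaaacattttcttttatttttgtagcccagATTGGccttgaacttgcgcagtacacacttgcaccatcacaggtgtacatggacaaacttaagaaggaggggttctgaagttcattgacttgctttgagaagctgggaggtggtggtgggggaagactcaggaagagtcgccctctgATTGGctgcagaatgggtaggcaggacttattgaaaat
The Pdk4 stretch holds 1 CCAAT motif and no AGGTCA, and the Acaa1b stretch holds 2 CCAAT motifs and no AGGTCA. The Cpt1a stretch holds 1 of each. It lies before the RefSeq start but inside the gene as annotated in GENCODE vM21, which begins at 3322334.

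These 27 genes have 30 windows of 250 bases before a start, and Crat, Abcd2, Vnn1, Acaa2, Decr1 and Hsd17b4 were not matched. For 25 of the 30 windows the bases after the start were found in a GENCODE transcript of the gene. RefSeq and GENCODE starts can differ. The windows of Crot and Etfdh and a window of Bdh1 lie wholly in annotated exons, and several others lie in them in part. PPARα binds with its partner RXR to a repeat of the hexamer AGGTCA spaced by 1 base. The hexamer, on either strand, was in the windows of 5 of the 27 genes (18.5%: Acadm, Acadvl, Cpt1a, Creb3l3 and Echs1), against 15.8% of all 27025 genes with a window. The repeat (AGGTCA, 1 free base, AGGTCA), on either strand and with up to 2 mismatches in its 12 fixed bases, was in 3 of 27 (11.1%: Creb3l3, Echs1 and Etfa), against 3.72% of all genes. All 3 had 2 mismatches. The median share of G and C was 59.6% in the 30 windows and 52.4% in all windows, and its part in these shares was not tested. A repeat can hold the hexamer, so a sequence can be counted under both. The motif CCAAT, on either strand, was in 13 of 27 (48.1%), against 37.5%. Sites farther from the start are outside these windows, and the letters alone show no binding.

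The regulators moved most under caloric restriction, where 3 of 4 rose. Pdk4 encodes the pyruvate dehydrogenase kinase that turns carbohydrate oxidation off while fat is burned. The authors' deposited table gives its means as 80.7 in the control, 1344 under caloric restriction, 91.1 under rapamycin, 59.4 under TM5614 and 51.8 under metformin. The restricted group was 16.7-fold above the control (log2 fold change 4.06, adjusted p = 8.24e-06), and the other 3 groups did not pass, with adjusted p from 0.829 to 0.980 by the authors' deposited table. This was the largest change of the set. Ppara itself had means of 1144 in the control, 2846 under caloric restriction, 1588 under rapamycin, 1981 under TM5614 and 1400 under metformin by the authors' deposited table. The control was the lowest of the 5 groups, and caloric restriction (1.32, adjusted p = 6.42e-08) and TM5614 (0.79, adjusted p = 0.0146) passed by the authors' deposited table. Creb3l3, a membrane-bound factor of the fasting response, went from 1710 to 2670 under caloric restriction and had 1743, 1952 and 1790 under rapamycin, TM5614 and metformin by the authors' deposited table (0.64, adjusted p = 0.00111 for caloric restriction). Vnn1, the pantetheinase and a known PPARα target, did not pass and had 297 in the control and 346 under caloric restriction by the authors' deposited table (0.22, adjusted p = 0.658).

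Of the 18 mitochondrial genes, 5 rose under caloric restriction, none fell and 13 did not pass (median log2 fold change 0.15). The carnitine shuttle held 2 of the 5. Cpt1a, which makes acylcarnitines at the outer membrane and limits entry, had means of 2796 in the control, 5110 under caloric restriction, 3388 under rapamycin, 3715 under TM5614 and 2614 under metformin by the authors' deposited table. Caloric restriction was the highest (0.87, adjusted p = 5.74e-06), and Cpt1a passed in no other comparison of the authors' deposited table. Crat, which exchanges acetyl groups between CoA and carnitine and works in peroxisomes too, went from 304 to 611 by the authors' deposited table (1.01, adjusted p = 2.76e-05). Cpt2, the partner of Cpt1a at the inner membrane, had 1054 and 1260 by the authors' deposited table (0.26, adjusted p = 0.135).

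Of the 4 acyl-CoA dehydrogenases, which open each cycle, 2 rose. The long-chain enzyme Acadl went from 1729 to 2439 under caloric restriction by the authors' deposited table (0.50, adjusted p = 8.36e-07). The medium-chain enzyme Acadm went from 2972 to 3903 (0.39, adjusted p = 9.33e-06 by the authors' deposited table). Acadvl, for very long chains, and Acads, for short ones, did not pass, with 0.14 and -0.15 by the authors' deposited table. Of the 5 enzymes of the later steps, Hadh, the short-chain hydroxyacyl-CoA dehydrogenase, rose from 2398 to 2962 by the authors' deposited table (0.30, adjusted p = 4.96e-04). Hadha and Hadhb, the subunits of the trifunctional protein for long chains, had 0.07 and 0.16 by the authors' deposited table and did not pass, nor did Echs1 (0.04) or Acaa2 (0.01). None of the 3 electron transfer genes passed: Etfa, Etfb and Etfdh had -0.04, 0.15 and -0.18 by the authors' deposited table. Among the 3 genes for unsaturated chains, Eci2 fell just short (0.47, adjusted p = 0.0513 by the authors' deposited table), and Eci1 and Decr1 had -0.04 and 0.19.

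**Figure D2:**
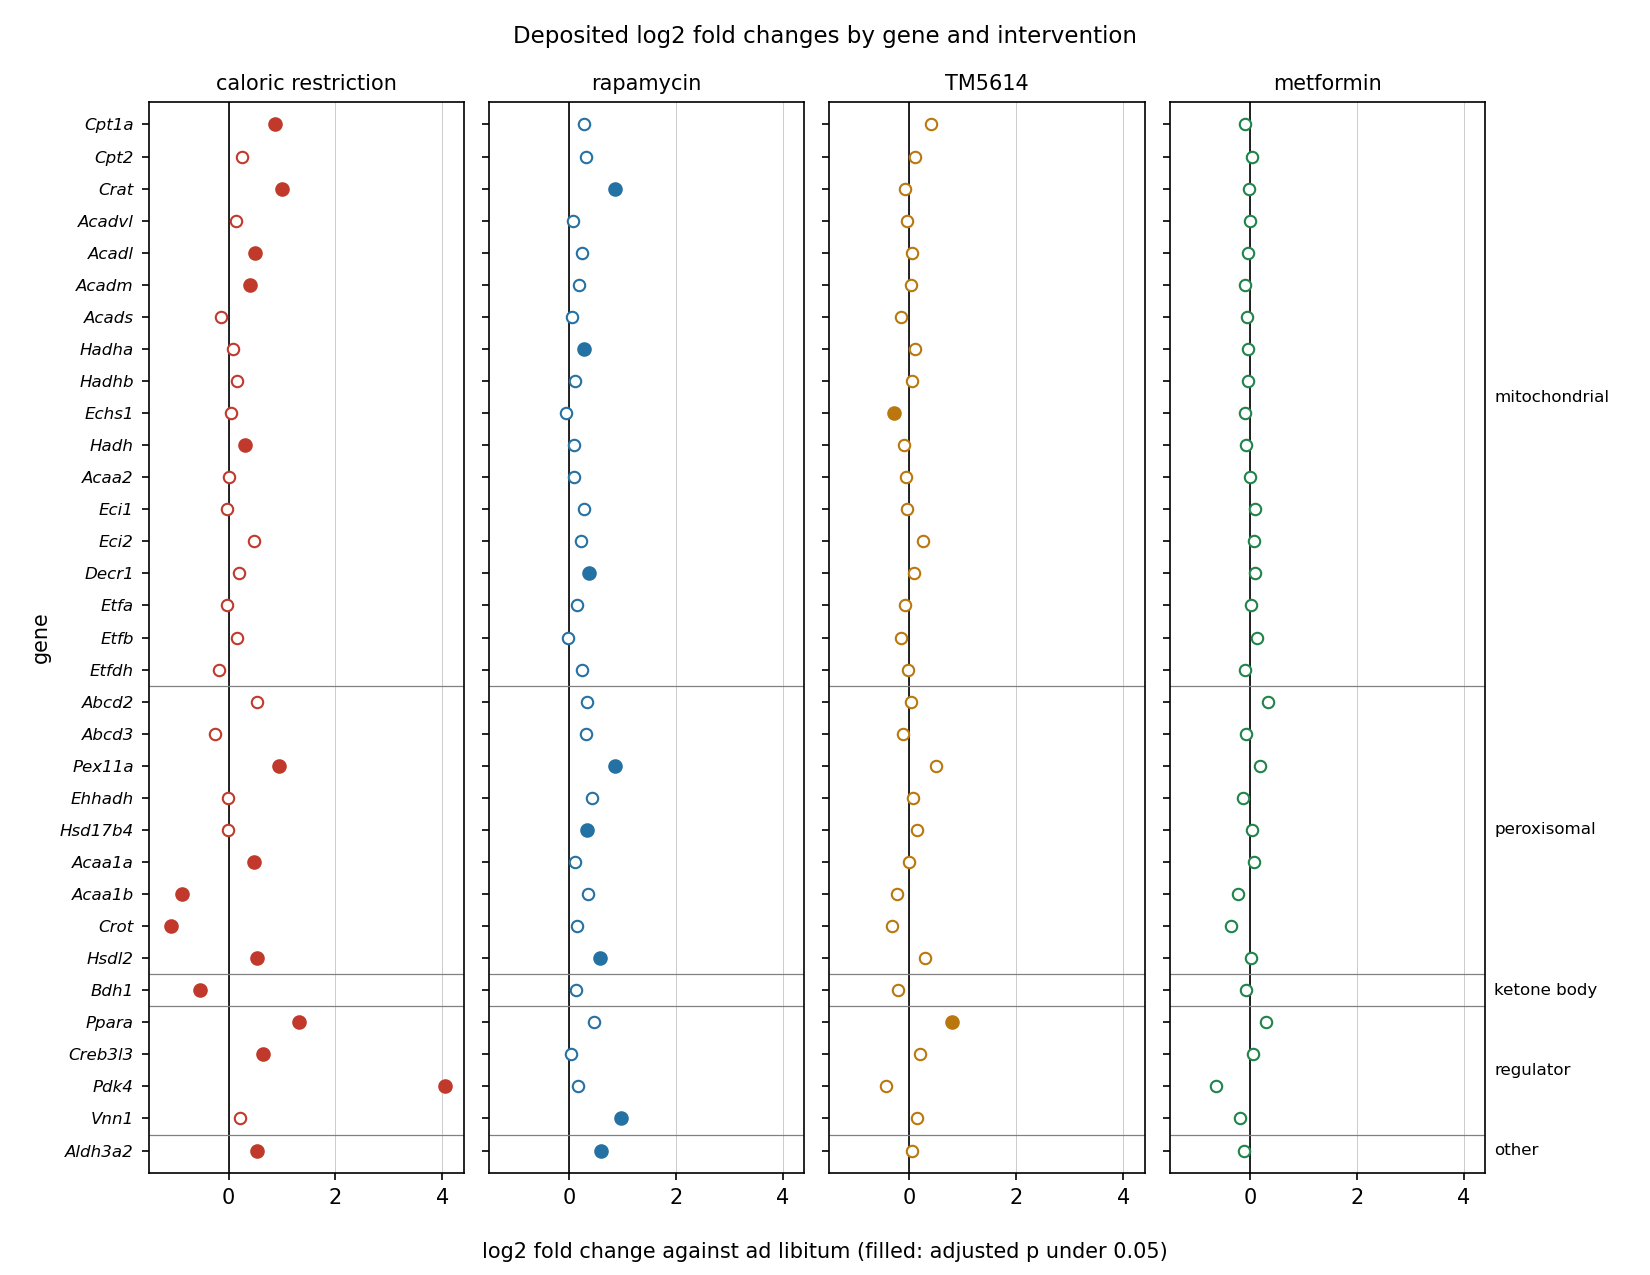
Deposited log2 fold change against ad libitum (x axis, the same scale in 4 panels) for the 33 genes, grouped by step, with filled points for an adjusted p under 0.05 and open points for the rest. Filled points number 15 under caloric restriction, 8 under rapamycin, 2 under TM5614 and none under metformin.

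Peroxisomal genes split under caloric restriction, with 3 of 9 higher, 2 lower and 4 that did not pass (median log2 fold change -0.01). Pex11a, which drives the division of peroxisomes, went from 223 to 429 by the authors' deposited table (0.94, adjusted p = 1.28e-04). Hsdl2, a dehydrogenase-like protein placed here with the peroxisomal enzymes, went from 551 to 790 (0.52, adjusted p = 4.14e-04 by the authors' deposited table). Crot, the carnitine octanoyltransferase that releases shortened chains from peroxisomes, had means of 5436 in the control, 2561 under caloric restriction, 6064 under rapamycin, 4335 under TM5614 and 4253 under metformin by the authors' deposited table. The restricted group was the lowest, with a log2 fold change of -1.09 and an adjusted p of 1.42e-06 by the authors' deposited table. The multifunctional enzymes Ehhadh and Hsd17b4 had -0.01 each by the authors' deposited table and did not pass, nor did the acyl-CoA transporters Abcd2 (0.54) and Abcd3 (-0.26).

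The thiolase pair Acaa1a and Acaa1b, which cut the last bond of the peroxisomal cycle, moved in opposite directions under caloric restriction. Acaa1b had means of 11981 in the control, 6554 under caloric restriction, 15279 under rapamycin, 10251 under TM5614 and 10199 under metformin by the authors' deposited table (-0.87, adjusted p = 1.49e-07 for caloric restriction). Acaa1a had 1718, 2376, 1846, 1703 and 1807 in the same order by the authors' deposited table (0.47, adjusted p = 0.00529 for caloric restriction). The ratio of Acaa1b to Acaa1a was 6.97 in the control, 2.76 under caloric restriction, 8.28 under rapamycin, 6.02 under TM5614 and 5.64 under metformin. These genes are close copies: 34.0% of the 50-base words in the longest coding transcript of Acaa1a also occur in Acaa1b. The division of reads between them is therefore uncertain. Their sum was 13699 in the control and 8930 under caloric restriction. It does not depend on that division if each shared read was counted once, but how shared reads were handled is unknown. The summed level of the 9 peroxisomal genes was 0.750 times that of the control under caloric restriction, and the 18 mitochondrial genes summed to 1.15 times. Without Acaa1b and Crot, left out after their values were seen, the peroxisomal sum was 14876 in the control and 15118 under caloric restriction.

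Ketone bodies are made in liver mitochondria, and Bdh1 carries out their last step, the exchange between acetoacetate and hydroxybutyrate. It had means of 1575 in the control, 1090 under caloric restriction, 1723 under rapamycin, 1351 under TM5614 and 1494 under metformin by the authors' deposited table. The fall under caloric restriction passed (-0.53, adjusted p = 2.28e-05 by the authors' deposited table), and that group was the lowest of the 5. Of 9 other ketone body genes, Slc16a7 rose, Acat1 fell and 7 did not pass. Slc16a7, a monocarboxylate transporter, went from 282 to 965 by the authors' deposited table (1.77, adjusted p = 3.67e-33). Acat1, the mitochondrial acetoacetyl-CoA thiolase, had -0.28 under caloric restriction (adjusted p = 0.00232 by the authors' deposited table). Under rapamycin Acat1 rose from 3106 to 3778 (0.28, adjusted p = 0.0238 by the authors' deposited table), and no other of the 9 passed. Aldh3a2, which oxidizes fatty aldehydes, rose from 2323 to 3351 under caloric restriction by the authors' deposited table (0.53, adjusted p = 0.0101).

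**Figure D3:**
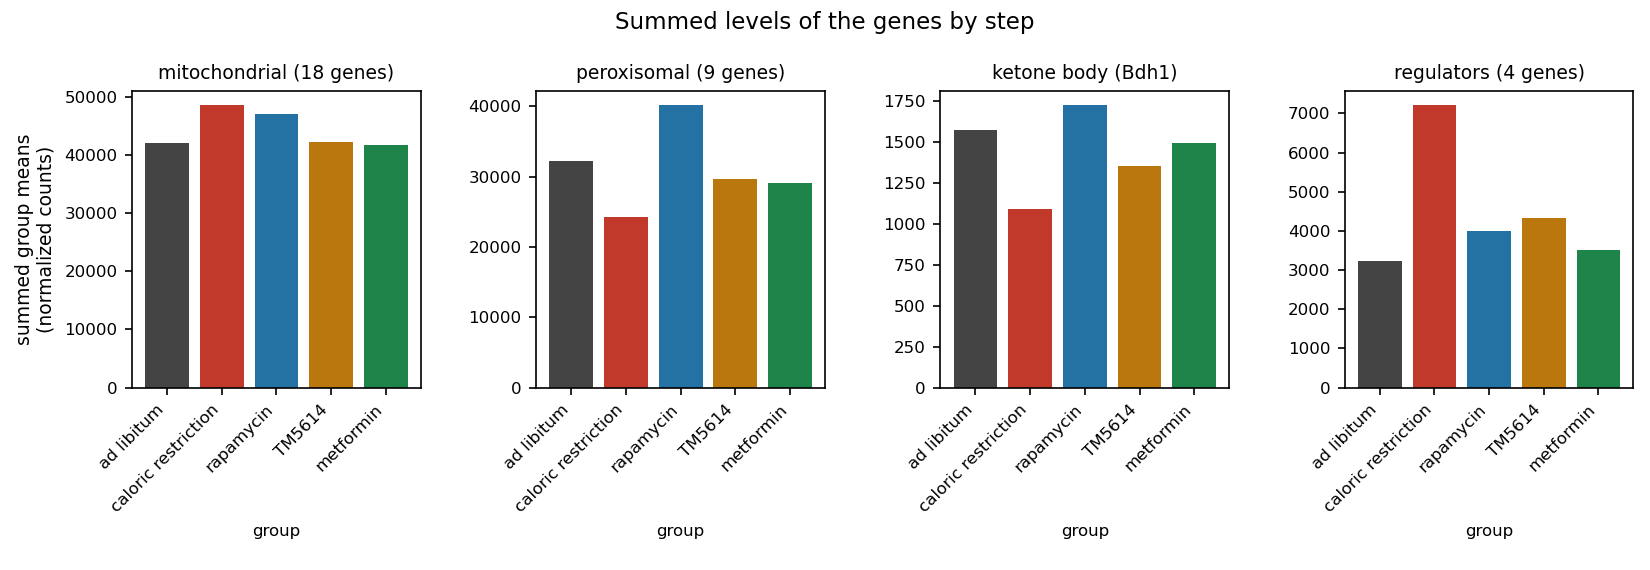
Summed group means of normalized counts for the mitochondrial, peroxisomal, ketone body and regulator genes in the 5 groups, as bars from 0, with 1 y scale per panel and no error bars since the sums have no replicates in the table. Under caloric restriction the mitochondrial bar is 1.15 times and the peroxisomal bar 0.750 times that of the control, whereas under rapamycin they are 1.12 and 1.24 times.

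Beside these changes, 4 of 11 Kupffer cell and macrophage markers fell under caloric restriction and none rose, with a summed level of 2040 in the control and 1061 under restriction. That sum was below the shared control under the compounds too, with 1643 under rapamycin, 1571 under TM5614 and 1476 under metformin, where none of the 11 passed. Of 10 pericentral hepatocyte markers 4 rose, with sums of 62577 and 112161, of which Cyp2e1 alone made up 42533.7 and 84383.5. Of 10 hepatocyte markers 3 rose and 1 fell. Fat tissue also expresses many of these oxidation genes. None of the 5 adipocyte markers passed under restriction, but all 5 had values above 0 (0.38 to 0.80), with sums of 658 and 986. None of these markers was at 0 in either group. Of 10 periportal markers 1 rose and 1 fell. In the stellate list 1 of 10 fell, with sums of 2426 and 2447. In the bile duct list 1 of 6 fell, with sums of 667 and 673. Of 3 erythroid markers Alas2 fell, and the other 2 had values above 0. Their part in the results was not tested, and in whole liver, fewer cells of a type and less RNA per cell cannot be told apart.

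Rapamycin raised 8 of the 33 genes, lowered none, and 25 did not pass. Over all 10369 genes with an adjusted p, 0.714% rose and 0.675% fell. The median log2 fold change of the set was 0.25, against 0.01 over all genes tested, and 31 of 33 values were above 0, the exceptions being Echs1 (-0.06) and Etfb (-0.02) by the authors' deposited table. The value farthest from 0 was 0.96, for Vnn1. No unadjusted p is in the table, so no count at that level stands beside the count of 0 falls, which is that of the authors' DESeq2 fit.

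Peroxisomal genes took 3 of the 8 rises under rapamycin, and all 9 had values above 0 (0.10 to 0.86, median 0.34). Hsdl2 had 551 in the control and 822 under rapamycin by the authors' deposited table (0.58, adjusted p = 0.00233). Hsd17b4, the D-specific multifunctional enzyme, went from 3774 to 4768 by the authors' deposited table (0.34, adjusted p = 0.00587). Pex11a had 406 under rapamycin beside 223 in the control by the authors' deposited table (0.86, adjusted p = 0.00956). Ehhadh, the L-specific counterpart and a known PPARα target, had 2860 and 3853 by the authors' deposited table (0.43, adjusted p = 0.182). Acaa1b and Crot, which fell under caloric restriction, had 0.35 and 0.16 under rapamycin with adjusted p of 0.264 and 0.848 by the authors' deposited table.

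Of the mitochondrial genes, Crat, Hadha and Decr1 rose under rapamycin and 15 did not pass. Crat went from 304 to 549 by the authors' deposited table (0.85, adjusted p = 0.00969). Hadha went from 2759 to 3363 by the authors' deposited table (0.29, adjusted p = 0.00807). The partner subunit Hadhb had 0.10 (adjusted p = 0.731 by the authors' deposited table). These genes lie head to head on chromosome 5 with 86 bases between their annotated starts. The ratio of Hadha to Hadhb was 1.67 in the control, 1.57 under caloric restriction, 1.89 under rapamycin, 1.73 under TM5614 and 1.66 under metformin. Of the 50-base words in the longest coding transcript of Hadhb, 62.4% also occur in other annotated genes, so its level is uncertain. Decr1, the dienoyl-CoA reductase for polyunsaturated chains, went from 1424 to 1836 by the authors' deposited table (0.37, adjusted p = 0.0131).

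Among the remaining genes, Vnn1 and Aldh3a2 rose under rapamycin. Vnn1 had means of 297 in the control, 346 under caloric restriction, 580 under rapamycin, 328 under TM5614 and 262 under metformin by the authors' deposited table. Rapamycin was the highest, and its adjusted p of 0.0495 lay just inside the threshold (0.96 by the authors' deposited table). Aldh3a2 had 2323 and 3520 by the authors' deposited table (0.60, adjusted p = 0.0293). Pdk4 and Ppara, the leading genes of caloric restriction, had 0.18 (adjusted p = 0.976) and 0.47 (adjusted p = 0.342) under rapamycin by the authors' deposited table. Cpt1a had 0.28 (adjusted p = 0.551 by the authors' deposited table) and Bdh1 had 0.13 (adjusted p = 0.720). Beside these changes, 2 of 10 sinusoidal endothelial markers fell, with sums of 1842 in the control and 1201 under rapamycin, and 1 of 10 stellate cell markers fell. All 10 markers of each of these lists had values below 0. Of 10 periportal markers 1 fell, Aldh1b1, from 425 to 197 (-1.11, adjusted p = 0.00756 by the authors' deposited table). All 10 pericentral markers had values below 0 without passing. Their part in the results was not tested.

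TM5614 raised Ppara, lowered Echs1, and left 31 of the 33 genes without a pass. Among all 10834 genes with an adjusted p, 2.01% rose and 1.95% fell, so that 1 in each direction is near what the whole table holds. Echs1, the short-chain enoyl-CoA hydratase, had means of 2001 in the control, 2062 under caloric restriction, 1926 under rapamycin, 1642 under TM5614 and 1879 under metformin by the authors' deposited table. The TM5614 group was the lowest (-0.29, adjusted p = 0.00543 by the authors' deposited table). Ppara went from 1144 to 1981. Among the other members, Cpt1a (0.41, adjusted p = 0.147), Pex11a (0.49, adjusted p = 0.174) and Hsdl2 (0.30, adjusted p = 0.161) had the next highest values by the authors' deposited table and did not pass. The median log2 fold change of the set was 0.02, with 17 values above 0. Beside this, 1 of 10 pericentral markers rose and 1 of 10 periportal markers fell. All 5 adipocyte markers had values above 0 without passing, with sums of 658 in the control and 861 under TM5614. The part of these markers in the results was not tested.

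Metformin changed none of the 33 genes in the authors' DESeq2 fit, where 0.163% of 7350 genes rose and 0.0816% fell. No unadjusted p is in the table. The median of the set was -0.03, with 14 values above 0. When the means were rescaled to the same total, the median was -0.12 and 9 of the 33 values changed sign. The values farthest from 0 were those of Pdk4 (-0.64, adjusted p = 0.980), Crot (-0.35, adjusted p = 0.847) and Abcd2 (0.34, adjusted p = 0.975) by the authors' deposited table. Without standard errors, no bound can be put on the changes that these libraries would have missed. No cell type marker passed under metformin. The sinusoidal endothelial sum was 1842 in the control and 1323 under metformin, with 2 of 10 markers above 0. All 5 adipocyte markers had values above 0, with sums of 658 and 899. The part of these markers in the results was not tested.

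Per length of transcript, the order of levels was led by thiolases and electron carriers. Group means were divided by the longest coding transcript of each gene in GENCODE vM21. Acaa1b had 7093 normalized counts per kb in the control, Acaa2 4873, Etfb 2638 and Etfa 2523, and the lowest were Crat with 71.9, Abcd2 with 38.9 and Pdk4 with 23.2. Under caloric restriction Acaa2 led with 4898 per kb and Acaa1b followed with 3880. Crot moved from rank 5 to rank 19 of 33, Cpt1a from 23 to 14 with 648 and 1184 per kb, and Pdk4 from 33 to 27. Etfb shares 67.3% of its 50-base words with another annotated gene, Gm45233, which overlaps it on the same strand, so its place is uncertain. Ranks depend on the length used: Echs1 was 11th in the control by its longest coding transcript and 27th by all annotated exons merged.

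**Figure D4:**
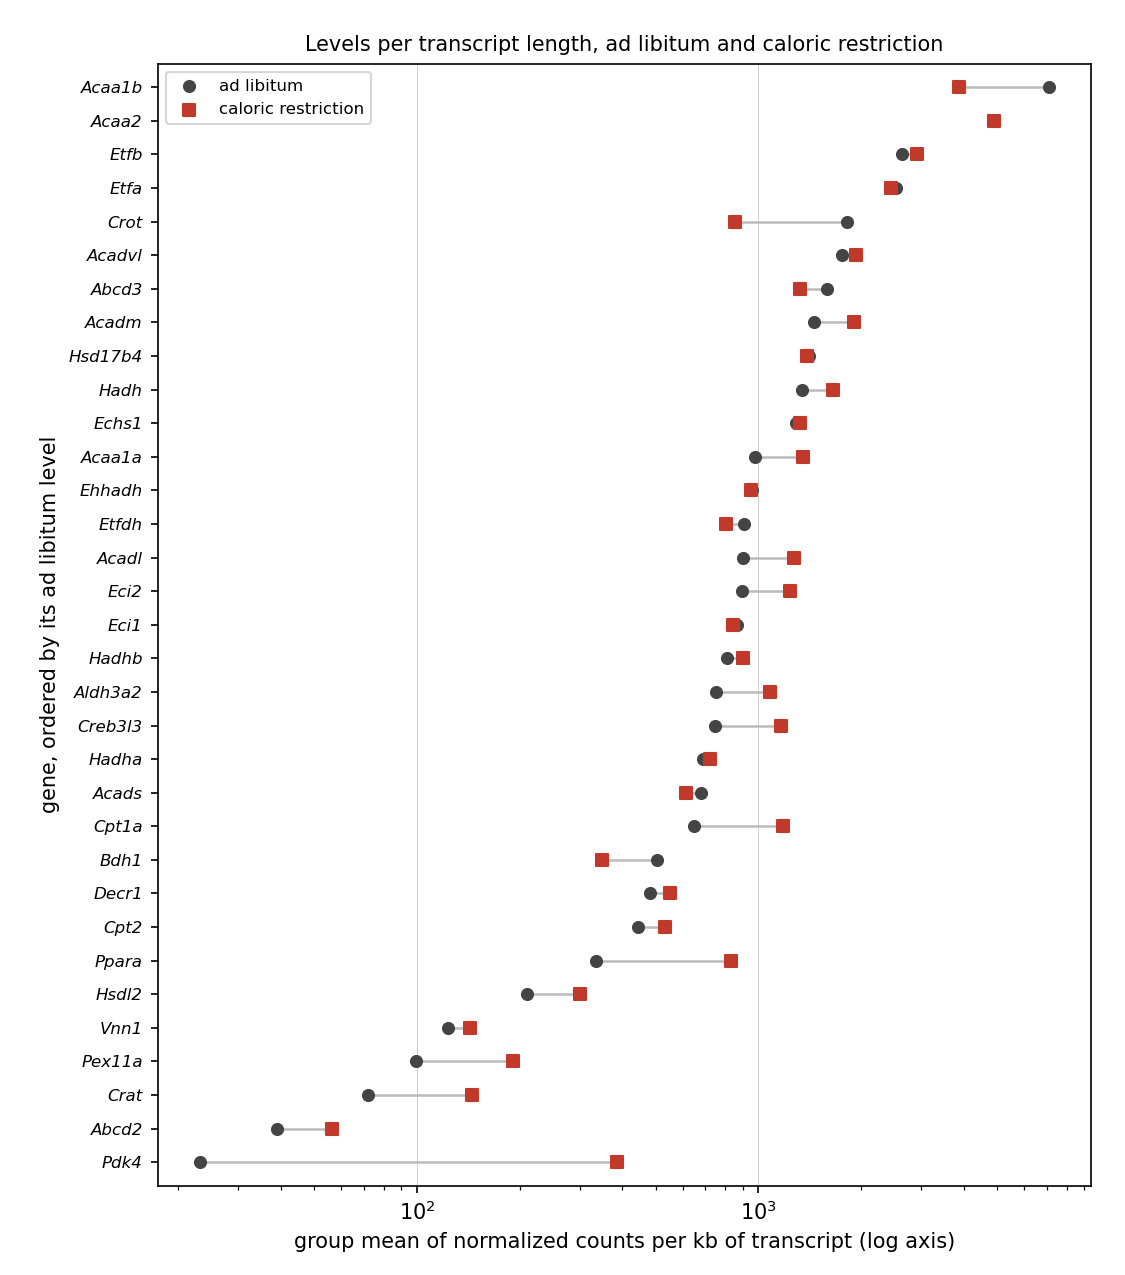
Group means of normalized counts per kb of the longest coding transcript (log axis) in the ad libitum and caloric restriction groups, joined by a line for each of the 33 genes, ordered by the ad libitum level. Most lines are short, and the longest is that of Pdk4, from 23.2 to 386 per kb.

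The members lie on many chromosomes (GRCm38, GENCODE vM21), and all 33 are protein-coding. Pdk4 lies on chromosome 6 from 5483351 to 5496309, Cpt1a on chromosome 19 from 3322334 to 3385733, Ppara on chromosome 15 from 85734983 to 85802819 and Crot on chromosome 5 from 8966033 to 8997324. Acaa1b lies on chromosome 9 from 119148023 to 119157093 on the minus strand, and Acaa1a on the same chromosome from 119339676 to 119350299 on the plus strand, with 182583 bases between their starts. Bdh1 lies on chromosome 16 from 31422280 to 31458901. Exon bases are shared with a gene of the other strand in 10 of the 33, and no source used here says whether reads were counted by strand.

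Other genes of the pathway or near it, outside the set, moved in both directions. Of 26 further genes listed with mitochondrial oxidation and fatty acid uptake, 6 rose under caloric restriction, 8 fell and 12 did not pass, with a median of 0.08. The thioesterase Acot2 (2.81) and the carnitine transporter Slc22a5 (2.15) rose, and the fatty acid binding protein Fabp1 (-1.23) and the acyl-CoA synthetase Acsl5 (-1.17) fell by the authors' deposited table. Slc25a20, the carrier that brings acylcarnitines across the inner membrane, rose from 862 to 1147 under caloric restriction (0.41, adjusted p = 0.00414) and to 1174 under rapamycin (0.45, adjusted p = 0.0211) by the authors' deposited table. The list includes Acaca and Acacb, whose products make malonyl-CoA, the inhibitor of Cpt1a, and both are among the falls. These counts are therefore not of oxidation and uptake genes alone. Under rapamycin 1 of these 26 rose and 1 fell, the latter being Ivd, of leucine breakdown (-0.41, adjusted p = 0.00220 by the authors' deposited table). Under TM5614 Slc22a5 rose (0.98) and Ivd fell (-0.29) by the authors' deposited table, and under metformin none of 23 with an adjusted p passed.

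Of 21 further genes listed as peroxisomal, 3 rose under caloric restriction, 5 fell and 13 did not pass, with a median of 0.02. Nudt7, a hydrolase of peroxisomal CoA, had 3569 in the control and 380 under caloric restriction (-3.23, adjusted p = 1.00e-106 by the authors' deposited table), and the branched-chain oxidase Acox2 fell too (-0.80 by the authors' deposited table). Under rapamycin 1 of the 21 rose and 1 fell, the latter being Nudt7 again, with 2403 (-0.57, adjusted p = 0.00991 by the authors' deposited table). Under TM5614 Hacl1, a lyase for branched chains, fell (-0.64, adjusted p = 0.0478 by the authors' deposited table). The thioesterase Acot4 (2.24) and the transporter Abcd4 (1.02) rose under caloric restriction by the authors' deposited table. Abcd4 is counted in this list although its product is found mainly in lysosomes. Of 13 peroxisome assembly genes, Pex26 rose (0.71, adjusted p = 0.0499) and Pex14 fell (-0.35, adjusted p = 0.0444) under caloric restriction by the authors' deposited table, and none passed under the compounds.

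Of 28 known PPARα targets outside the set, some of them also in the lists above, 12 rose under caloric restriction, 1 fell and 15 did not pass, with a median of 0.66. Acot3 (5.75) and the fatty acid hydroxylases Cyp4a10 (2.54) and Cyp4a14 (2.46) were among them by the authors' deposited table, and Fgf21, the fasting hormone, had 13.3 and 49.8 (adjusted p = 0.0497). Under rapamycin 7 of 27 with an adjusted p rose and none fell (median over the 28 genes 0.58), Cyp4a14 with 1.28 (adjusted p = 0.00817 by the authors' deposited table) and the fatty acid transporter Cd36 with 0.70 (adjusted p = 0.0433). Slc22a5 was the only one to pass under TM5614 and Lpin2 (-0.99) the only one under metformin by the authors' deposited table.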

How the data were processed

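Liver RNA of 18 mice was sequenced after poly(A) selection, per the labels' protocols. Reads were aligned with HISAT2 2.0.5 to mm10, per the submitters' processing notes. The sources used here name no read counter, strand setting or gene annotation. The deposited table, made with DESeq2 by the authors as its name states, holds a normalized signal (the group mean of counts divided by size factors), a log2 fold change and an adjusted p-value per intervention. For the 33 genes the deposited log2 fold changes lay within 0.00202 of the log2 ratio of the deposited means. A further table has 18 columns of normalized values whose names match no label, and none was used. A column for TM5441, a compound no label names, was not used either. No value per library remained, so the planned fit per library was not run and depth per library is unknown.

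Calls, medians and sums were computed with Python 3.11.15 and pandas 2.3.3 and checked on simulated tables. Medians over all genes cover those with an adjusted p. The 33 genes and all lists were chosen with earlier results of these data known. Genes of the lists were named where called, up to 4 per list and comparison with a group mean of at least 50, besides 5 fixed pathway genes, of which some are not reported here; Acaca and Acacb were added after their values were seen. The alternatives were other thresholds (0.01 and 0.10), a log2 fold change of at least 0.5, a mean of at least 100, pseudocounts of 1 and 10, and other scalings. Sequences are from RefSeq (GRCm38.p6) and lengths from GENCODE vM21. The labels do not say more of the mice than that each library is a sample of its own. The p-values set a difference of groups against the spread between libraries. Which control libraries, and how many, entered them is unknown.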

Additional observations from a re-analysis of the deposited data

How the results depend on the processing

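No paired analysis was possible because the table holds group means and no column could be given a replicate number; for the same reason no library could be left out. At an adjusted p under 0.01 the count of rises under rapamycin went from 8 to 5 and that under TM5614 from 1 to 0. With a log2 fold change of at least 0.5 as well, the rises under rapamycin numbered 5 and the falls under TM5614 0. For caloric restriction the rises numbered 8 to 13 and the falls 3 under these settings, under a threshold of 0.10 and with a mean of at least 100. Rescaling the group means to the same total moved the median of all 11201 genes with a mean of at least 10 by -0.10 for caloric restriction and -0.09 for metformin on the log2 scale. The median of the set then went from 0.19 to 0.0911 under caloric restriction. Under that rescaling 3 of 33 values changed sign for caloric restriction and 9 for metformin, none of them called, and none changed sign for rapamycin or TM5614. Pseudocounts of 1 and 10 moved no median by more than 0.1. Depth per library is unknown, so no floor or interval can be given.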

Other observations

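Triglyceride lipases and carboxylesterases moved in both directions under caloric restriction: of 10 genes 4 rose, 1 fell and 5 did not pass. Pnpla2, the adipose triglyceride lipase, had 718 in the control and 1303 under caloric restriction (0.86, adjusted p = 9.15e-07 by the authors' deposited table), and the carboxylesterases Ces1d (0.65) and Ces1g (0.63) rose while Ces3a fell from 13361 to 4843 (-1.46). Under TM5614 Ces1d (-0.58, adjusted p = 0.00759) and Ces1g (-0.31, adjusted p = 0.0478) fell by the authors' deposited table. Of 21 partners and coregulators of PPARα, 6 rose under caloric restriction and 1 fell. Esrra (0.94, adjusted p = 1.90e-06), Tfeb (0.96, adjusted p = 0.0106), Foxo1 (0.75, adjusted p = 9.38e-05) and Hnf4a (0.65, adjusted p = 0.00658) were among the rises by the authors' deposited table. None of the 21 passed under rapamycin in the authors' DESeq2 fit, for which no unadjusted p is in the table. Med1, a coactivator subunit, rose under TM5614 from 155 to 260 (0.75, adjusted p = 1.46e-04 by the authors' deposited table), and Foxo1 fell under metformin from 606 to 349 (-0.80, adjusted p = 0.00304).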
